A study of Drosophila melanogaster with 12 samples.

Results

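The discs described here are eye-antennal imaginal discs of ey>wge larvae, which carry the driver ey-Gal4 together with the transgene UAS-wge, and they were set against discs of larvae that carry ey-Gal4 alone. The members are the 6 arrays of these 2 genotypes, 3 each, chosen by their titles out of 12 arrays in the series. All larvae were wandering larvae of the last instar, each array held RNA of 30 pairs of discs, and the 3 arrays of a genotype were labelled as biological replicates. Both genotypes carry the driver, in which a regulatory region of eyeless makes the yeast activator Gal4. UAS-wge discs, with the transgene and no driver, are the other parent and were used on 3 arrays to see which responding genes also differ between the parental genotypes. The remaining 3 arrays, from ey>wge larvae with the allele pair Su(var)3-9[1]/[2], entered no comparison here. Whether the driver and the transgene were present in 1 or 2 copies, and in which genetic background, is not given in the sources used here.

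winged eye (wge) encodes a chromatin-associated protein with a BAH domain, and the series title states that its overexpression transdetermines the eye-antennal disc, meaning that cells of this disc take on the fate of another disc. In the larval eye disc a field of progenitors is specified by the Pax6 genes ey and toy with so, eya and dac, and a wave of differentiation then turns progenitors into clusters of photoreceptors under Notch and EGF receptor signals. Wing discs use another set of selector genes, among them ap for dorsal cells, vg for the wing field and nub for the pouch, while Hox genes such as Antp mark the thoracic segments.

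Expression was measured on Affymetrix arrays as MAS5 signal, an intensity per probe set on a linear scale, with 18769 probe sets after 183 Affymetrix control probe sets were set aside. Median signals were 39.4 to 41.5 in ey>wge, 39.1 to 43.1 in UAS-wge and 40.6 to 44.0 in ey-Gal4, and the number of arrays limits the precision. Replicate arrays correlated at 0.971 to 0.976 on log2(signal + 16) across probe sets, which are not independent. The median standard deviation (SD) within a genotype on that scale was 0.27 in ey>wge, 0.25 in UAS-wge and 0.28 in ey-Gal4. A change is the difference of mean log2(signal + 16), ey>wge minus ey-Gal4 unless stated, given with its standard error (SE). The threshold for a call is an adjusted p of 0.05 from limma with Benjamini-Hochberg adjustment over the 18769 probe sets, and the words rose and fell are used for such calls. Where a gene has several probe sets, the one with the highest mean signal stands for it.

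The probe set for wge itself read 924.6, 1115.4 and 1162.3 in ey>wge, 800.9, 931.3 and 826.8 in UAS-wge, and 775.7, 810.0 and 951.2 in ey-Gal4. The lowest ey>wge array lay below the highest ey-Gal4 array, and the change of 0.33 ± 0.12 did not pass (adjusted p = 0.207). The sources used here do not state if the probe set matches the RNA made by the transgene. The tissue label held in the driver control: toy, so, eya and gl, genes of the eye field and the photoreceptors, read 1271 to 8088 there, and the antennal gene Dll read 1481.0 to 1921.7.

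In ey>wge discs 711 of 18769 probe sets changed against ey-Gal4 (3.79%), with 307 higher (1.64%) and 404 lower (2.15%). At least 2-fold changes made up 33.9% of the higher and 53.5% of the lower probe sets. These are bulk discs, in which fewer cells of a type and less RNA per cell cannot be told apart. In 710 of the 711 the 3 arrays of ey>wge and the 3 of ey-Gal4 did not overlap, which held for 3575 of all 18769 probe sets (19.0%). The median change of all genes was 0.003. The 711 calls covered 597 probe sets with 1 gene symbol, 19 with several symbols and 95 with none. By the representative probe set 541 of 11981 genes changed (4.52%), 237 higher (1.98%) and 304 lower (2.54%). Without ey>wge replicate 3 the 711 became 468, and without ey-Gal4 replicate 2 they became 474, while the 307 higher became 177, 191 and 200 without ey>wge replicate 3, ey-Gal4 replicate 2 and ey-Gal4 replicate 3. Of the 541 genes 282 kept the call whichever of the 9 arrays was left out. The plot of change against mean signal shows calls over most of the signal range and few at its low end.

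**Figure D1:**
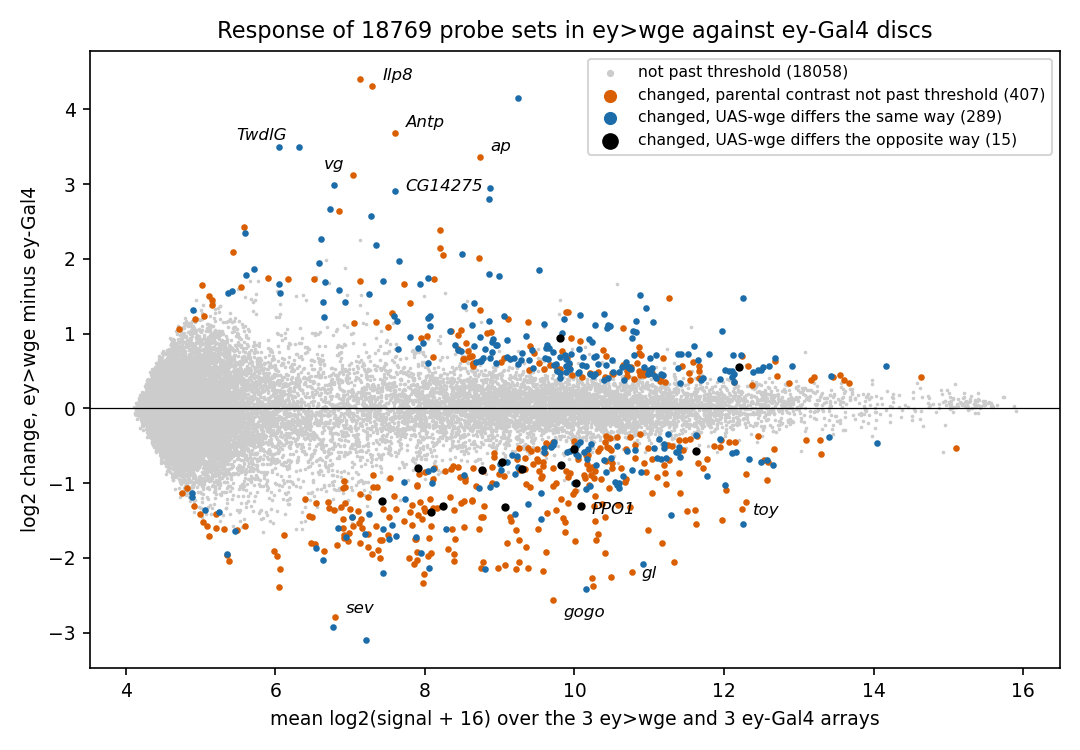
Change of every probe set (log2, ey>wge minus ey-Gal4, vertical axis) against its mean log2(signal + 16) over the 6 arrays (horizontal axis). Coloured points are the 711 changed probe sets, orange where UAS-wge against ey-Gal4 did not pass, blue where it passed the same way and black where it passed the opposite way; Ilp8, Antp and ap stand out among the rises and gogo, gl and sev among the falls.

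The gene lists used from here on were chosen with earlier results of these data known, so their counts are description and not independent support. A minority of the measured genes of the wing and the trunk rose, some of them strongly. Antp, a Hox gene of the thorax, read 963.1, 476.2 and 684.4 in ey>wge and 26.1, 51.9 and 39.6 in ey-Gal4. Every ey>wge array was far above every ey-Gal4 array, and the change was 3.68 ± 0.40 (adjusted p = 4.22e-05), or 12.9-fold. A second Antp probe set rose by 4.41 ± 0.45 and the third, with low signals, changed by 0.78 ± 0.46 (adjusted p = 0.487). The list of Hox genes and cofactors holds 10 genes, and only 4 have a probe set with a single gene symbol, so the rest were not assessed. Of the 4 Hox genes measured, Dfd, which specifies head segments, also rose, by 0.58 ± 0.13 (adjusted p = 0.0237). That smaller call was lost when any of the 6 arrays of ey>wge and ey-Gal4 was left out (adjusted p = 0.0539 to 0.111). Scr read 139.3, 179.2 and 334.8 in ey>wge and 25.8, 156.3 and 124.7 in ey-Gal4, with overlap between the groups (1.13 ± 0.48, adjusted p = 0.285). The fourth, pb, changed by -0.17 ± 0.49 (adjusted p = 0.929). Neither Antp, Dfd nor Scr differed past the threshold between the parents.

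In the wing field list 6 of 22 measured genes rose and 0 fell, namely ap, vg, nub, Dr, kni and knrl, and the median of the list was 0.20. ap, the LIM-homeodomain selector of dorsal wing cells, read 1355.8, 1368.1 and 1313.5 in ey>wge and 163.3, 109.9 and 88.1 in ey-Gal4. The ey>wge arrays lay close together and above all ey-Gal4 arrays, a change of 3.36 ± 0.22 (adjusted p = 4.86e-07) or 10.2-fold. vg, the wing selector that acts with Scalloped, read 330.2, 320.8 and 480.8 in ey>wge against 13.6, 43.9 and 33.6 in ey-Gal4. Its groups were also well apart, with a change of 3.12 ± 0.35 (adjusted p = 5.36e-05). nub, a POU factor of the pouch, read 868.0, 805.9 and 826.2 in ey>wge and 235.1, 200.6 and 157.0 in ey-Gal4, and it rose by 2.01 ± 0.22. The second probe sets of ap and vg rose as well, by 2.64 ± 0.38 and 2.43 ± 0.40. For nub 1 of 3 probe sets was called, and the other 2 had mean signals under 33 in both genotypes. Dr, the Msh homeobox gene of dorsal tissue, read 693.2, 400.7 and 780.4 in ey>wge and 127.6, 102.9 and 144.9 in ey-Gal4, without overlap (2.14 ± 0.26, adjusted p = 0.000116). The neighbouring genes kni and knrl, zinc-finger factors that act in placing a wing vein, rose by 1.04 ± 0.19 and 0.98 ± 0.17.

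The other 16 wing genes did not pass. Among them are genes that eye-antennal and wing discs both use: salm changed by -0.23 ± 0.11, en by -0.28 ± 0.13, dpp by -0.06 ± 0.27, ct by 0.22 ± 0.14 and bs, which specifies intervein cells, by 0.24 ± 0.14. rn, a zinc-finger gene of the pouch and the leg, had overlapping arrays and a change of -0.58 ± 0.32 (adjusted p = 0.456). wg and sd have no probe set with a single gene symbol here. None of the 22 wing genes differed past the threshold between the parents.

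Among 17 measured genes of the notum, the wing hinge and the body wall 6 rose (pnr, sr, ara, caup, tsh and grn), 0 fell, and the median was 0.49. grn, a GATA factor, read 541.4, 669.8 and 592.3 in ey>wge and 150.9, 137.6 and 110.3 in ey-Gal4. All ey>wge arrays exceeded all ey-Gal4 arrays, and the change was 2.06 ± 0.21 (adjusted p = 1.96e-05). sr, the EGR-type factor of tendon precursors in the notum, read 289.5, 326.4 and 228.3 in ey>wge and 107.9, 114.3 and 94.4 in ey-Gal4 (1.28 ± 0.25, adjusted p = 0.00656). The Iroquois genes caup and ara, neighbours on chromosome arm 3L that pattern the notum, rose by 0.77 ± 0.13 and 0.70 ± 0.16. caup stood at 1425.1 to 1991.8 in ey>wge and 951.0 to 1079.5 in ey-Gal4, so these genes were already expressed in control discs. The GATA gene pnr of the dorsal midline rose by 0.53 ± 0.13 (adjusted p = 0.0367), and tsh, a zinc-finger gene of the trunk and the proximal appendages, by 0.58 ± 0.10. The count of 6 was 4 without ey>wge replicates 1 or 3 or ey-Gal4 replicates 1 or 2, where ara and pnr did not pass (adjusted p = 0.0539 to 0.103 and 0.0816 to 0.153). With no variance trend 2 passed. Members that did not pass include mirr (0.55 ± 0.16, adjusted p = 0.0753), tup (0.49 ± 0.19), eyg (0.56 ± 0.24) and ush (0.38 ± 0.27). None of the 17 passed between the parents.

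**Figure D2:**
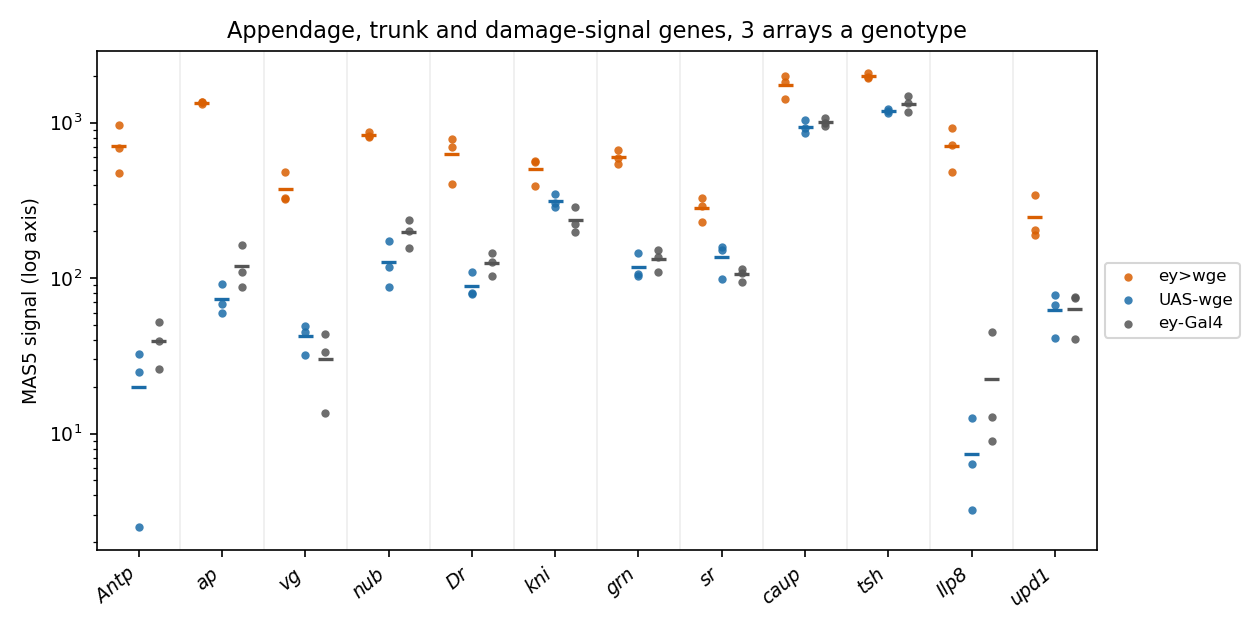
MAS5 signal on a log axis of 12 raised genes of the Hox, wing, trunk and damage-signal lists on each of the 3 arrays of ey>wge, UAS-wge and ey-Gal4; bars are means. In all 12 genes the ey>wge arrays lie above those of ey-Gal4, with wide gaps for Antp, vg and Ilp8 and small ones for caup and tsh.

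In the retinal determination list 7 of 12 fell and 1 rose, with a median of -1.07. toy, the upstream Pax6 gene, read 3295.2, 2970.8 and 2835.9 in ey>wge and 8088.1, 7241.1 and 7813.8 in ey-Gal4. The groups were separate, and toy changed by -1.34 ± 0.09 (adjusted p = 5.58e-07), with its other 2 probe sets called in the same direction. ey, the second Pax6 gene and the source of the driver's regulatory region, read 564.6, 471.8 and 343.4 in ey>wge and 810.9, 789.5 and 823.4 in ey-Gal4 (-0.82 ± 0.15, adjusted p = 0.00452). eya, a phosphatase and coactivator, read 1288.5, 1062.0 and 1074.5 in ey>wge and 4172.2, 2853.9 and 3719.1 in ey-Gal4. Its groups were apart by more than their spread (-1.62 ± 0.13), as were those of its partner so (-1.36 ± 0.12) and of dac (-1.37 ± 0.18). The pipsqueak-type genes dan and danr, which act in eye and antenna, changed by -1.92 ± 0.12 and -1.32 ± 0.13. The riser was tsh. Optix, an eye homeobox gene related to so, read 491.5 to 582.2 in ey>wge and 615.8 to 1047.9 in ey-Gal4, and its change of -0.58 ± 0.20 did not pass (adjusted p = 0.145).

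In the photoreceptor specification list 16 of 21 fell, 0 rose and the median was -1.33. gl, the zinc-finger factor of photoreceptor development, read 834.1, 848.7 and 719.6 in ey>wge and 3324.0, 3633.0 and 4164.5 in ey-Gal4. The ey>wge arrays lay close together and far below the control arrays, a change of -2.19 ± 0.12 (adjusted p = 7.5e-08). ato, the proneural gene that starts each photoreceptor cluster, read 749.4, 883.4 and 785.2 in ey>wge against 2267.2, 2156.5 and 2245.4 in ey-Gal4 (-1.45 ± 0.11, adjusted p = 1.49e-06). sev, the receptor tyrosine kinase of the R7 photoreceptor, read 10.2, 102.0 and 8.7 in ey>wge and 223.5, 310.1 and 310.2 in ey-Gal4. One ey>wge array stood well above the other two and still below all control arrays, and the change was -2.79 ± 0.47 (adjusted p = 0.0021). boss, the ligand of Sevenless made by R8, was near background in ey>wge at 2.8 to 6.5 and read 47.0 to 85.3 in ey-Gal4.

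Other genes of the cluster fell by similar amounts. phyl, a target of the EGF receptor in R7 and other late photoreceptors, changed by -1.65 ± 0.12, and the homeobox genes ro and onecut by -1.60 ± 0.23 and -2.08 ± 0.31. sens, needed in R8, changed by -1.27 ± 0.22, svp, an R3, R4, R1 and R6 receptor gene, by -1.33 ± 0.24, pros by -1.43 ± 0.19 and lz by -1.23 ± 0.18. The adhesion genes rst and hbs, which arrange cells between the clusters, changed by -0.95 ± 0.10 and -1.27 ± 0.10. chp, encoding the photoreceptor protein Chaoptin, was the only one of the 21 that also differed between the parents: it read 345.7, 350.1 and 341.0 in ey>wge, 546.4, 399.4 and 450.8 in UAS-wge, and 771.0, 1087.1 and 1022.9 in ey-Gal4. The members that did not pass were sina, nvy, da, mirr and spdo, the first 3 with changes of -0.20 ± 0.19, -0.19 ± 0.27 and -0.26 ± 0.13. In the phototransduction and pigment list, whose genes mostly act later in the adult eye, 3 of 25 fell (inaC, inaE and rdgC) and the median was -0.14. The call of rdgC was lost without ey-Gal4 replicates 2 or 3 (adjusted p = 0.0544 and 0.0587), and rdgC was also lower in UAS-wge than in ey-Gal4 (-1.23, adjusted p = 0.0206). For inaE 1 of 5 probe sets was called, and for rdgC 1 of 2.

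**Figure D3:**
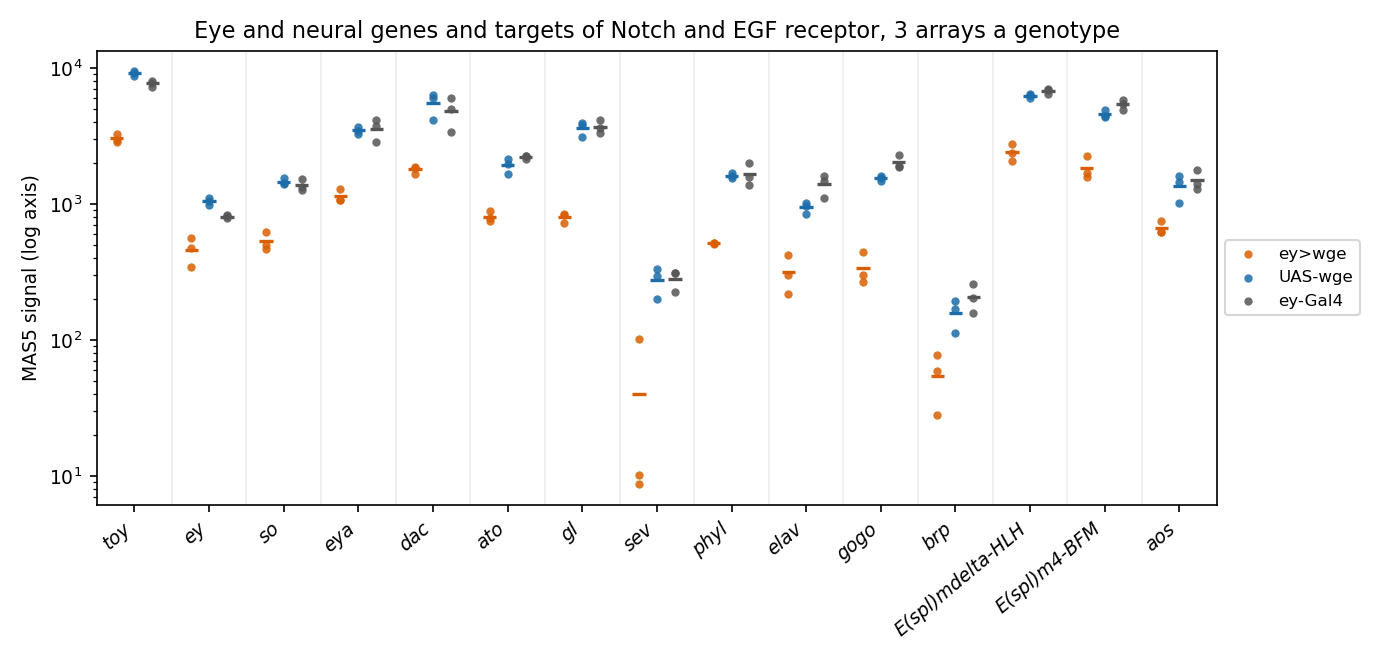
MAS5 signal on a log axis of 15 lowered genes of eye specification, photoreceptors, neurons and the Notch and EGF receptor pathways on each of the 3 arrays of ey>wge, UAS-wge and ey-Gal4; bars are means. All ey>wge arrays lie below all arrays of both parents in each of the 15 genes.

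Several genes of neurons were among the falls, and most members of the neuronal lists did not pass. elav, a pan-neuronal RNA-binding protein gene, read 421.6, 300.1 and 218.1 in ey>wge and 1617.2, 1467.3 and 1106.0 in ey-Gal4. No array overlapped, and the change was -2.13 ± 0.20 (adjusted p = 8.12e-06). The axon guidance receptor gene gogo, which acts in photoreceptor axons, read 444.0, 265.2 and 301.0 in ey>wge against 1879.0, 2301.5 and 1903.2 in ey-Gal4. This was among the largest falls of named genes (-2.56 ± 0.16, adjusted p = 2.35e-07), and a second gogo probe set with mean signals under 37 did not pass. Ank2, encoding an ankyrin of axons, read 334.6, 379.5 and 323.3 in ey>wge and 1406.1, 1798.2 and 1671.7 in ey-Gal4 (-2.18 ± 0.18), with 3 of 5 probe sets called. nerfin-1, a zinc-finger gene of early neurons, changed by -2.09 ± 0.18 and Ekar, a kainate-type glutamate receptor gene, by -2.14 ± 0.16.

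In the synapse and vesicle release list 8 of 24 fell, 0 rose and the median was -0.29. They were brp, nSyb, Cadps, Rab3, AP-2alpha, EndoA, futsch and Ank2. brp, the active zone scaffold gene, read 77.0, 58.8 and 27.8 in ey>wge and 156.9, 257.3 and 204.0 in ey-Gal4 (-1.70 ± 0.33, adjusted p = 0.00714). That call was lost without ey-Gal4 replicate 2 (adjusted p = 0.0556), and 3 further brp probe sets of low signal did not pass. The count of 8 was 4 without ey-Gal4 replicates 2 or 3 or ey>wge replicate 2, 3 with no variance trend and 5 with all 12 arrays. nSyb, AP-2alpha, Rab3 and EndoA each lost the call without 3 or more single arrays, with adjusted p up to 0.0923, 0.0886, 0.128 and 0.0958. In the axon guidance and adhesion list 7 of 33 fell and Ten-a rose (0.49 ± 0.11), a call lost without ey-Gal4 replicates 1 or 3 or ey>wge replicate 1 (adjusted p = 0.0544 to 0.0986). The 7 became 4 with no variance trend and 4 with all 12 arrays. Ten-a was also higher in UAS-wge than in ey-Gal4 (0.72, adjusted p = 0.000782), and AP-2alpha was also lower there (-0.39, adjusted p = 0.0449). Besides gogo, rst and hbs the fallers were Nrt (-1.51 ± 0.17), kirre (-1.0 ± 0.18), unc-104, a kinesin gene of synaptic vesicle transport (-0.84 ± 0.14), and stan, an atypical cadherin gene (-0.56 ± 0.11). In the excitability list, which holds Ekar, 1 of 27 fell and the median was -0.19.

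Markers of other cell types were measured beside these falls. In the list of 16 glia and septate junction genes the summed signal was 47764 to 52589 in ey>wge, 50196 to 56361 in UAS-wge and 55564 to 59054 in ey-Gal4. loco, an RGS gene of glia, fell by 0.94 ± 0.09 and the junction gene cora rose by 0.41 ± 0.09 (call lost without ey-Gal4 replicates 2 or 3 or ey>wge replicates 1 or 2, adjusted p = 0.0522 to 0.0918), while the glial master gene repo read 202.2 to 210.0 in ey>wge and 287.5 to 304.5 in ey-Gal4 (-0.48 ± 0.17, adjusted p = 0.149). Of 10 neuroblast markers 1 fell, pros, and their summed signal was 7721 to 10804 in ey>wge, 7787 to 11357 in UAS-wge and 9544 to 11894 in ey-Gal4. cora was also higher in UAS-wge than in ey-Gal4 (0.35, adjusted p = 0.0373). The part of glia and neuroblasts in the neuronal falls was not tested.

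In the Notch pathway list 11 of 21 fell, 0 rose and the median was -0.55. Among the ligand and its regulators, Delta (Dl) read 4392.6, 3626.0 and 4238.0 in ey>wge, 4575.3, 4616.2 and 4907.0 in UAS-wge, and 6644.8, 6327.9 and 6513.5 in ey-Gal4. All arrays of ey>wge and of UAS-wge, which has no driver, lay below the ey-Gal4 arrays (-0.67 ± 0.09 in ey>wge and an adjusted p of 0.00606 between the parents). A second Delta probe set did not pass (-0.18 ± 0.12, adjusted p = 0.565). neur, a ubiquitin ligase gene for Delta, changed by -0.84 ± 0.19 and the coactivator gene mam by -0.60 ± 0.13. Of the E(spl) complex, whose genes are direct Notch targets, E(spl)mdelta-HLH read 2781.7, 2355.4 and 2072.0 in ey>wge against 7023.0, 6843.2 and 6423.5 in ey-Gal4. The ey>wge arrays were far below all control arrays, a change of -1.50 ± 0.10 (adjusted p = 6.91e-07). E(spl)m4-BFM changed by -1.55 ± 0.12, E(spl)m2-BFM and E(spl)m7-HLH by -0.87 ± 0.13 each, E(spl)malpha-BFM by -0.79 ± 0.18 and E(spl)m3-HLH by -0.42 ± 0.09. The Bearded-family genes Brd and Tom changed by -1.14 ± 0.11 and -0.55 ± 0.10. Members that did not pass include E(spl)mbeta-HLH (-0.24 ± 0.13), fng (0.13 ± 0.09), a modifier of the receptor, and numb (-0.29 ± 0.12). The count of 11 was 7 without ey>wge replicate 3, 6 with no variance trend and 7 with all 12 arrays. The 4 that did not pass there, neur, mam, E(spl)malpha-BFM and E(spl)m3-HLH, had adjusted p up to 0.103, 0.0862, 0.123 and 0.0699 over all arrays left out. N has no probe set with a single gene symbol here.

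In the EGF receptor list 2 of 16 fell and 0 rose, with a median of -0.30. Both are outputs or inhibitors of the pathway: aos, the secreted antagonist, read 750.5, 619.9 and 624.9 in ey>wge and 1778.9, 1408.3 and 1294.6 in ey-Gal4 (-1.14 ± 0.16, adjusted p = 0.000535), and aop, the ETS repressor, fell by 0.88 ± 0.13. The ligand gene spi changed by -0.32 ± 0.09 (adjusted p = 0.0863) and the receptor gene Egfr by 0.10 ± 0.12. In the Dpp list magu, a secreted modulator, was the single gene of 21 to rise (0.56 ± 0.10), and it was lower in UAS-wge than in ey-Gal4 (-0.53, adjusted p = 0.00429). In the Fat and Hippo list 1 of 14 rose, ds, a protocadherin ligand of Fat (1.03 ± 0.16), which differed between the parents by 0.98. In the Wingless list only 6 of 23 genes, and in the Hedgehog list 13 of 14, have a probe set with a single gene symbol. Both had 0 calls in limma. Since 4.52% of all genes changed, 0 calls among so few genes does not show that these pathways were unchanged. Over the whole array 2636 probe sets stood under 0.05 before adjustment.

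Genes of the disc damage list changed in both directions. Ilp8, a relaxin-like peptide by which damaged discs delay pupariation, read 927.7, 718.0 and 480.2 in ey>wge and 9.0, 45.0 and 12.8 in ey-Gal4. It was below the 40th percentile of its array on 2 of the 3 control arrays, and every ey>wge array was above all of them. Its change of 4.31 ± 0.41 (adjusted p = 1.14e-05) was the largest rise among the probe sets that stand for a gene. In the disc damage and JNK list of 24 genes puc, grnd and wnd also rose, and Mmp2, rgn and scaf fell. grnd, the receptor of the TNF ligand Eiger, read 2415.3, 2563.2 and 2423.4 in ey>wge and 1643.2, 1235.0 and 1329.8 in ey-Gal4, a small shift without overlap (0.82 ± 0.11, adjusted p = 0.000388). puc, the phosphatase that is induced by and limits JNK, rose by 0.46 ± 0.12 (adjusted p = 0.0419), a call lost without any of 7 single arrays, ey-Gal4 1, 2 and 3, UAS-wge 1 and 2 and ey>wge 2 and 3 (adjusted p = 0.0566 to 0.183). Mmp2, a matrix metalloproteinase gene, read 241.5, 352.6 and 274.8 in ey>wge and 1543.7, 975.3 and 1249.1 in ey-Gal4 (-2.05 ± 0.17), and 1 of its 2 probe sets was called. The ligand gene egr itself changed by -0.44 ± 0.14 (adjusted p = 0.112). wnd, a kinase gene upstream of JNK, and rgn differed strongly between the parents and are described with the parental genes.

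In the JAK/STAT list 2 of 8 rose. upd1, a ligand, read 205.3, 189.1 and 342.6 in ey>wge and 76.0, 40.8 and 74.1 in ey-Gal4, with all ey>wge arrays above the control arrays (1.70 ± 0.34, adjusted p = 0.00846). Without ey>wge replicate 3 its change was 1.45 and did not pass (adjusted p = 0.0771). chinmo, a BTB zinc-finger gene downstream of the pathway, rose by 1.28 ± 0.29 (adjusted p = 0.0197), a call lost without ey>wge replicates 2 or 3 or ey-Gal4 replicates 2 or 3 (adjusted p = 0.0791 to 0.117). The receptor gene dome changed by 0.29 ± 0.15 and Stat92E, the transcription factor, by 0.12 ± 0.11.

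Of 20 leg genes btd, ap and tsh rose and dac and B-H2 fell. btd, an SP-family gene of ventral appendages, read 364.0, 399.6 and 425.5 in ey>wge, 430.3, 365.3 and 492.0 in UAS-wge, and 196.1, 121.4 and 169.1 in ey-Gal4. Both ey>wge (1.23 ± 0.19) and UAS-wge, which has no driver, thus stood above the driver control. Dll, the selector of distal appendages, changed by 0.00 ± 0.13. In the antenna list 4 of 13 fell (dan, danr, lz and B-H2), 0 rose and the median was -0.18. Each of these falls is also counted in another list: dan and danr in retinal determination, lz in photoreceptor specification and B-H2 in the leg list. B-H2, a Bar homeobox gene, read 920.9, 785.0 and 915.3 in ey>wge and 1654.7, 1632.3 and 1719.8 in ey-Gal4 (-0.92 ± 0.10). ss, the selector of antennal identity, changed by -0.01 ± 0.16 (adjusted p = 0.987).

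Calls were 14.6% of the probe sets assigned to chromosome 4, 12 of 82, all lower, against 3.98% to 4.77% on the other arms. These counts are of probe sets and not of genes, and the 12 include 3 probe sets of toy. In the list labelled chromosome 4 transcription factors and receptors 6 of 20 fell, namely ey, toy, onecut, Ekar, Cadps and Ephrin. Cadps and Ephrin are of neither kind, so the label does not describe all members. The call of Ephrin was lost without ey>wge replicates 1 or 3 or any ey-Gal4 array (adjusted p = 0.0583 to 0.0865). These include eye and neuronal genes counted above. Of 11884 pairs of neighbouring measured genes both members were changed in 39 (0.328%), 13 pairs both higher, 11 both lower and 15 in opposite directions. Pairs that moved together include ara with caup, Tom with Brd, and E(spl)m3-HLH with both E(spl)m2-BFM and E(spl)m4-BFM.

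Over all genes 1.98% rose and 2.54% fell, and several metabolic and housekeeping families had a larger share of rises. It was 3.7% for P450, 8.82% for glutathione S-transferase, 4.35% for mitochondrial ribosomal and 4.17% for respiratory chain genes. In odorant and taste families it was 0.472%. Changes were positive in 60 of 69 mitochondrial ribosomal genes (median 0.19) and 54 of 72 respiratory genes (median 0.16). Among all 11981 genes 6035 were positive. In the P450 family 3 of 81 rose, including Cyp18a1, which inactivates ecdysone, at 476.3, 246.9 and 394.7 in ey>wge and 110.9, 98.6 and 99.0 in ey-Gal4 (1.66 ± 0.26). Of 34 glutathione S-transferase genes 3 rose (GstD9, GstE14 and GstT3) and GstZ2 fell by 1.90 ± 0.25. GstE14 had unequal arrays, 261.8, 581.6 and 315.8 in ey>wge and 176.3, 453.6 and 2229.0 in UAS-wge, and its call was lost without any of the 6 arrays of ey>wge and ey-Gal4 (adjusted p = 0.0535 to 0.133). Cuticle protein families had 3 higher and 2 lower of 105, odorant and taste families 1 higher and 2 lower of 212, mitochondrial ribosomal proteins 3 higher of 69 and respiratory chain genes 3 higher of 72. Without ey-Gal4 replicate 1 the higher cuticle genes were 5, without ey>wge replicate 3 the mitochondrial ribosomal count was 1, and without ey-Gal4 replicates 2 or 3 the respiratory count was 1. Of 40 proteasome genes 1 rose and of 41 cytosolic ribosomal protein genes 0 changed. Chromatin lists moved little: Asx fell in the Polycomb group list (-0.53 ± 0.13, 1 of 15), Hers in the heterochromatin factor list (-0.68 ± 0.17, 1 of 15), and 0 of 12 Trithorax group genes changed. Asx lost the call without ey>wge 1 or 3, UAS-wge 2 or ey-Gal4 1 or 2 (adjusted p = 0.0535 to 0.148), and Hers without any ey>wge array, UAS-wge 2 or ey-Gal4 1 or 3 (adjusted p = 0.0618 to 0.171). The cell cycle, apoptosis, insulin, ecdysone response, heat shock and antimicrobial lists, of 8 to 21 measured genes, had 0 calls. Lists of this size are too small for that to show no response, since 4.52% of all genes changed.

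**Figure D4:**
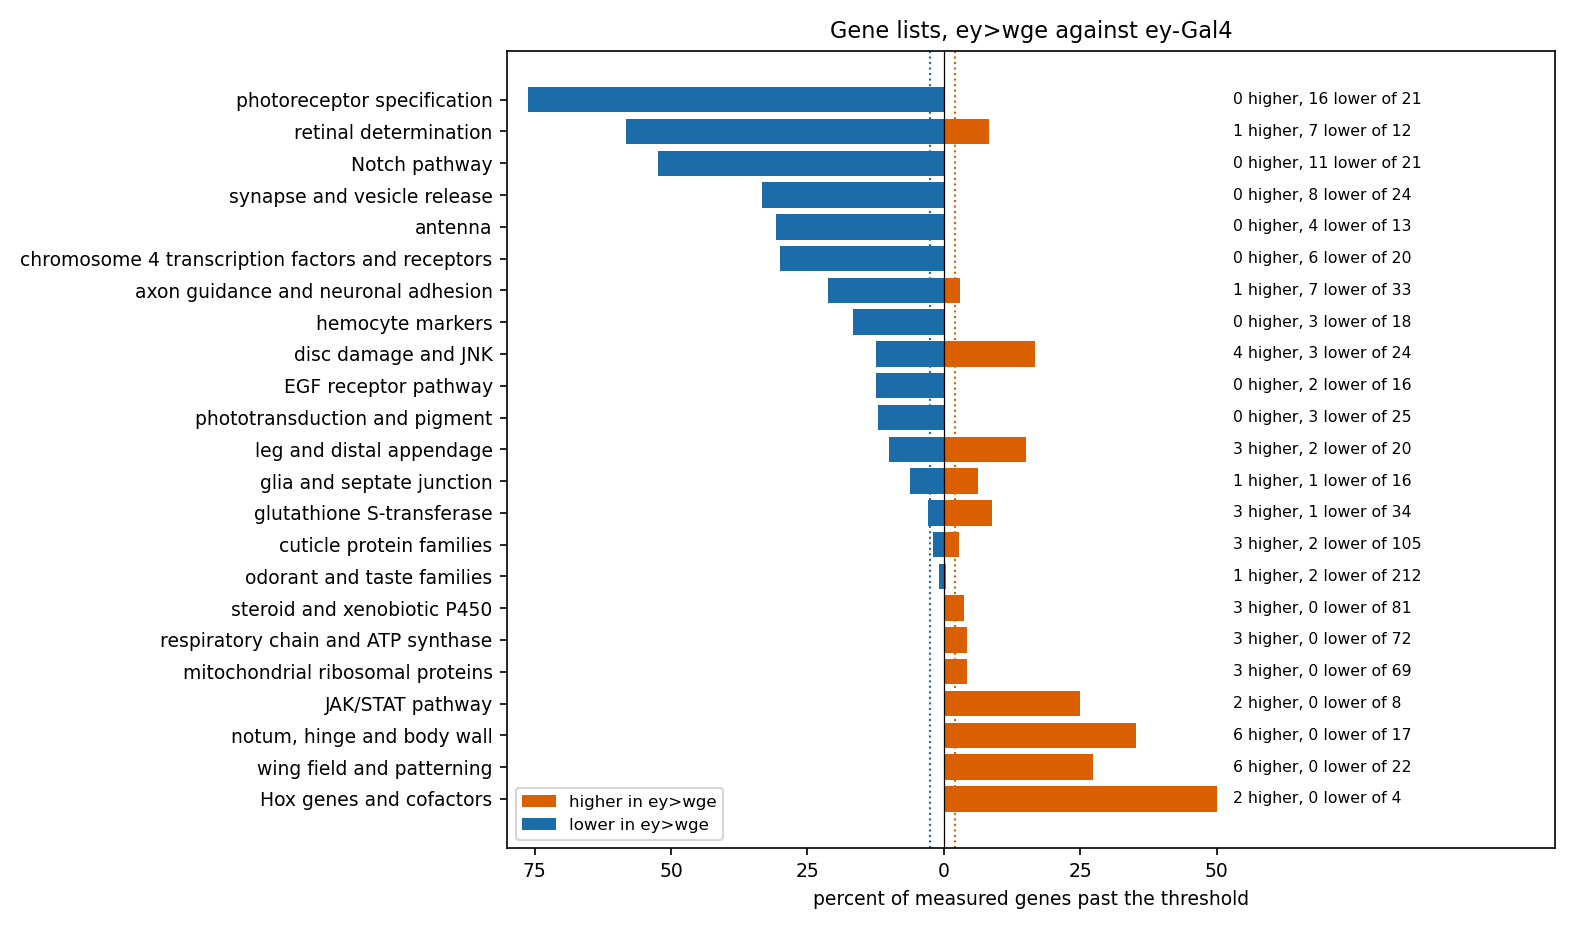
Share of measured genes of each list that were higher (right of 0) or lower (left of 0) in ey>wge than in ey-Gal4, in percent, for lists with 2 or more calls; dotted lines give the shares over all genes, 1.98% higher and 2.54% lower. Photoreceptor, retinal and Notch genes lie far to the left, and Hox, notum and wing genes to the right. The lists differ in size, share some genes and were chosen with earlier results of these data known, so their shares are a description.

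Outside the lists, 6 further genes were chosen after their values were seen (Phk-3, Sox15, dsx, peb, cpo and comm). Phk-3, encoding a secreted protein of the chemosensory protein family, read 4613.8, 3771.4 and 3908.8 in ey>wge and 1594.3, 1255.9 and 1540.5 in ey-Gal4 (1.48 ± 0.13, adjusted p = 3.93e-06). Sox15, an HMG-box gene, stood at 122.6 to 177.0 in ey>wge and 19.4 to 52.0 in ey-Gal4 (1.73 ± 0.38), and dsx, the sex determination factor, rose by 0.94 ± 0.19. Sox15 lost the call without ey>wge replicates 1 or 3 or ey-Gal4 replicate 3 (adjusted p up to 0.0876), and dsx without ey>wge replicate 3 or ey-Gal4 replicate 3 (up to 0.0619). For each of Sox15 and dsx 1 of 2 probe sets was called. The other changed by -0.57 for Sox15 and -0.48 for dsx and did not pass. Among the falls, peb, the zinc-finger gene hindsight of photoreceptor differentiation, read 508.2, 304.9 and 419.9 in ey>wge and 1042.8, 1187.0 and 1625.7 in ey-Gal4 (-1.61 ± 0.18). cpo, an RNA-binding protein gene of neurons, changed by -1.80 ± 0.13 and comm, which sorts the guidance receptor Robo, by -1.51 ± 0.13. twit, superdeath, nolo, loaf and CG12071 were among the 15 named genes with the largest falls, at -2.14 to -2.33. None of these 11 genes differed past the threshold between the parents.

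The parental genotypes differ from each other, and the comparison of UAS-wge with ey-Gal4 uses the same 3 ey-Gal4 arrays as the response. In that comparison 905 probe sets passed (4.82%), 441 higher (2.35%) and 464 lower (2.47%) in UAS-wge. Of the 711 responding probe sets 304 also passed there, which is 42.8% of the response and 33.6% of the parental difference. Of the 307 higher probe sets 184 (59.9%) were also higher in UAS-wge, and of the 404 lower ones 105 (26.0%) were also lower. A further 2 and 13 passed in opposite directions. The parental difference did not pass for 121 higher (39.4%) and 286 lower (70.8%) probe sets. The overlap was not tested, because both comparisons use the ey-Gal4 arrays. Without ey-Gal4 replicate 2 and without ey>wge replicate 3 the 304 became 197 and 201. The 184 became 117 without ey>wge replicate 3, and the 105 became 59 and 69 without ey-Gal4 replicates 2 and 3.

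Of the 184 probe sets higher in both, the ey>wge mean lay between the parental means in 140. In the direct comparison of ey>wge with UAS-wge 702 probe sets passed (3.74%). There, 0 of the 184 were further raised, 16 stood nearer to ey-Gal4 and 168 did not pass. The median ey>wge position was 0.77 of the way from the ey-Gal4 mean to the UAS-wge mean, with quartiles of 0.59 and 0.98. The 184, like the 105 below, had to pass in both comparisons. Probe sets in which ey>wge stayed near ey-Gal4 are therefore left out by the choice, and the ey-Gal4 arrays serve both comparisons. These positions and counts describe the chosen probe sets and not all parental differences. Of the 105 lower in both, 62 lay between the parents, 27 stood nearer to ey-Gal4 by the test, 6 were lowered further and 72 did not pass. Appl, tau and rdo are the members of those 6 with a single symbol. In all, 263 probe sets changed the same way against both parents, 54 higher and 209 lower. The median change was 0.73 for rises shared with UAS-wge and 0.69 for rises with no parental call, -0.84 for shared falls and -1.2 for falls with no parental call.

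Shared rises included several of the largest. TwdlG, of a cuticle protein family, read 288.7, 223.6 and 247.8 in ey>wge, 721.9, 606.9 and 627.2 in UAS-wge, and 14.9, 6.3 and 3.3 in ey-Gal4. The 3 genotypes did not overlap and ey>wge stood at 38.9% of the UAS-wge mean (3.50 ± 0.25 against ey-Gal4). mthl8, of the Methuselah-like receptor family, read 299.2, 261.5 and 324.7 in ey>wge, 646.4, 619.4 and 912.0 in UAS-wge, and 1.8, 62.3 and 27.4 in ey-Gal4. CG14275 read 516.1, 540.2 and 488.4 in ey>wge, 631.3, 741.8 and 677.1 in UAS-wge, and 35.5, 77.3 and 58.5 in ey-Gal4. In both, ey>wge lay between the parents. pst rose by 2.06 ± 0.18 and CG4593 by 1.85 ± 0.16, with UAS-wge at 2.35 and 1.70 against ey-Gal4. Obp99a, an odorant-binding protein gene, read 3124.2, 2892.0 and 3498.5 in ey>wge, 8566.5, 8398.4 and 8113.1 in UAS-wge, and 1292.7, 1070.7 and 935.6 in ey-Gal4, again in between. wnd stood at 1322.9 to 1472.0 in ey>wge, 1812.1 to 2282.9 in UAS-wge and 541.8 to 703.5 in ey-Gal4. The 3 mitochondrial ribosomal protein genes that rose (mRpL12, mRpS24 and mRpS28) were all higher in UAS-wge too. mRpL12 lost its call without ey>wge replicate 3 (adjusted p = 0.0569) and mRpS24 without ey>wge replicates 1 or 3 or ey-Gal4 replicates 1 or 2 (0.0786 to 0.114).

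Shared falls included CG33474, SK, sNPF, metro and Cpr97Ea. The call of sNPF, a neuropeptide gene, was lost without ey-Gal4 replicate 1 (adjusted p = 0.0528). SK, a calcium-activated potassium channel gene, read 159.6, 107.6 and 79.3 in ey>wge, 121.1, 177.8 and 125.7 in UAS-wge, and 424.4, 603.7 and 629.3 in ey-Gal4. Here ey>wge and UAS-wge overlapped, and both lay below ey-Gal4 (-2.14 ± 0.26 and -1.85). Appl, the fly homologue of the amyloid precursor protein gene, read 1095.4, 1101.3 and 656.5 in ey>wge, 2316.0, 2434.9 and 2380.7 in UAS-wge, and 3607.0, 3957.0 and 4433.7 in ey-Gal4. It fell below both parents (-2.09 ± 0.16 against ey-Gal4, -1.35 against UAS-wge with adjusted p = 8.26e-05), as did the microtubule gene tau (-1.93 ± 0.17 and -1.28). rgn read 2915.8, 2920.9 and 2777.8 in ey>wge, 102.1, 76.0 and 74.7 in UAS-wge, and 5227.0, 5461.6 and 7019.0 in ey-Gal4. Tektin-C, an axoneme gene, was near background in UAS-wge at 2.2 to 22.8, and read 994.1 to 1077.0 in ey>wge and 2017.3 to 2175.4 in ey-Gal4. Its ey>wge mean was 50.0% of the ey-Gal4 mean. Tektin-C was the single call among 25 axoneme genes, and it was lost without any of the 6 arrays (adjusted p = 0.0681 to 0.102). The summed signal of those 25 was 1912 to 2058 in ey>wge, 910 to 958 in UAS-wge and 2809 to 3008 in ey-Gal4.

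**Figure D5:**
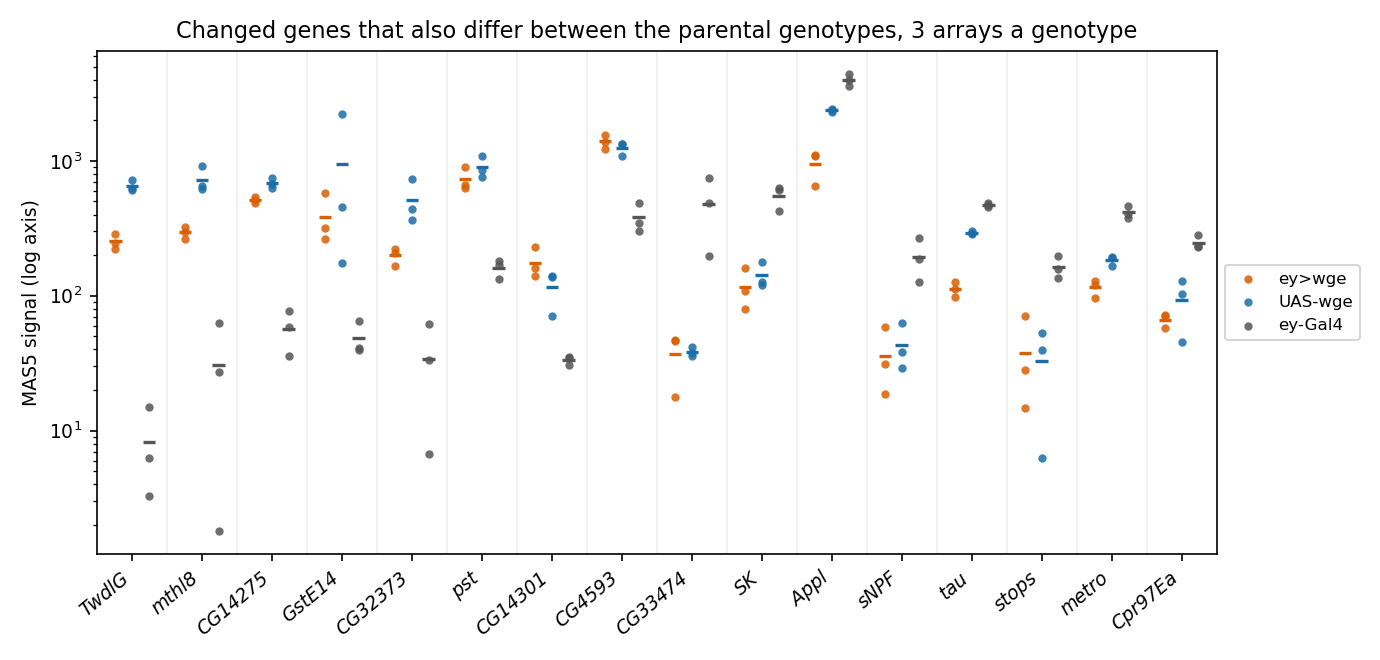
MAS5 signal on a log axis of 8 higher and 8 lower genes that passed both in ey>wge and in UAS-wge against ey-Gal4, on each of the 3 arrays of ey>wge, UAS-wge and ey-Gal4; bars are means. For TwdlG, mthl8 and CG32373 ey>wge lies between the parents, for SK and CG33474 it lies with UAS-wge, and for Appl and tau it lies below both.

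Of 18 hemocyte markers 3 fell in ey>wge against ey-Gal4 and 0 rose, with a median of -0.01, while 10 were higher in UAS-wge than in ey-Gal4. The 3 that fell (PPO1, PPO2 and Hml) were higher in UAS-wge. The 3 became 1 without ey-Gal4 replicate 1 and 1 with no variance trend. PPO1, a prophenoloxidase of crystal cells, read 650.2, 733.6 and 657.6 in ey>wge, 4771.6, 6308.2 and 5170.0 in UAS-wge, and 2118.1, 1549.8 and 1500.1 in ey-Gal4. ey>wge was the lowest genotype without overlap (-1.30 ± 0.14 against ey-Gal4, adjusted p = 2.83e-05). PPO2 and Hml, a clotting protein gene of plasmatocytes, changed by -0.76 ± 0.16 and -0.71 ± 0.15, and Pxn changed by -0.03 ± 0.20. The call of Hml was lost without ey>wge replicates 1 or 3 or ey-Gal4 replicates 1 or 2 (adjusted p = 0.0593 to 0.0846), and that of PPO2 without ey>wge replicate 2 or ey-Gal4 replicate 1 (0.0555 and 0.0558). The summed signal of the 18 was 36303 to 37468 in ey>wge, 54217 to 59589 in UAS-wge and 39482 to 40192 in ey-Gal4. The part of hemocyte numbers in these 3 falls was not tested. Of 16 muscle and myoblast markers 0 changed in ey>wge and 5 were lower in UAS-wge, with summed signals of 14456 to 17246 in ey>wge, 8026 to 10312 in UAS-wge and 12930 to 27340 in ey-Gal4. Of 6 fat body, 11 salivary gland and 11 gut markers 0 changed in ey>wge, and of 8 trachea markers vvl rose (1.41 ± 0.30), a call lost without ey>wge replicate 2 or ey-Gal4 replicates 2 or 3 (adjusted p = 0.0577 to 0.102).

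None of the called genes of the Hox, wing, notum, antenna, retinal determination and JAK/STAT lists passed between the parents, and in the photoreceptor and Notch lists 1 each did, chp and Delta. All called hemocyte genes did, in the direction opposite to their falls in ey>wge, and all called mitochondrial ribosomal protein genes did, in the same direction. So did 2 of the 7 of the damage and JNK list (wnd and rgn). In either direction, 222 of all 541 changed genes passed between the parents. Over all genes 5.96% passed between the parents, 2.89% higher and 3.07% lower in UAS-wge. Ilp8, Antp, ap, vg, CG7299, Dr, grn and nub were the 8 rises without a parental call that the naming rule gave. CG7299 had widely spread control arrays, at 299.7, 51.1 and 85.4, and its call was lost without ey>wge replicates 2 or 3 or ey-Gal4 replicates 2 or 3 (adjusted p = 0.0509 to 0.0614). Against UAS-wge, Antp, ap, vg, nub, Dr, grn and Ilp8 rose by 2.21 to 4.92, with all ey>wge arrays above all UAS-wge arrays. CG7299 had overlapping arrays there and did not pass (1.01, adjusted p = 0.375). Of all 121 higher probe sets without a parental call 52 (43.0%) also passed the same way against UAS-wge. The 8 genes were chosen for their rise on the same ey>wge arrays, so their height over UAS-wge is no independent support.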

How the data were processed

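RNA of 9 of the 12 arrays (ey>wge, UAS-wge and ey-Gal4, 3 biological replicates each) was analysed. Per the labels, 100 ng of total RNA was amplified through cDNA of 2 rounds and labelled with biotin. The deposited values are intensity signals on a linear scale, made with MAS5 per the submitters' processing notes, without version, settings or detection calls. Leaving out 2% of probe sets at each end, every array had a mean of 500.01 to 500.02, so the arrays share a scale.

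Signals were taken as log2(signal + 16) with no further normalization and no filter on low values. The added 16 understates changes of weakly expressed genes. The 9 arrays entered a linear model with a mean for each genotype in limma 3.58.1 in R 4.3.3 (eBayes with a trend, two-sided). The p-values rest on the spread between replicates within genotypes, pooled over the 9 arrays and moderated by its trend with signal. Tables were joined with Python 3.11.15 and pandas 2.3.3. Of the probe sets 13646 carried 1 gene symbol in the platform annotation, 402 several and 4721 none. Only those with 1 symbol are named, and 13543 were matched to the supplied Drosophila gene table, from which chromosome arms and neighbours came. The array's genome build is not given in the sources used here, so no coordinates are printed. Sequences were not used here.

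The members and the 48 gene lists were chosen with earlier results of these data known, and 12 list symbols were matched through older names. Named genes are wge and ey, the 15 higher and 15 lower genes with the largest changes among those past the threshold whose arrays do not overlap and whose higher genotype exceeds a signal of 100, the 8 largest each way with and without a parental call, and, from each list, at most 4 called members in order of adjusted p, with 11 genes of standing in the study (Antp, ap, vg, so, eya, dac, gl, sev, Ilp8, Pxn, Hml) whatever their p; further members were named where a count needed them. Data were simulated with normally distributed noise for 18769 probe sets, of which 200 were changed in ey>wge. The 200 were drawn only from probe sets whose mean on the log2 scale exceeded log2(100). Recovery among them was 82% for a log2 change of 1 and 94% for one of 2, with 3.83% false among the calls. Recovery of weaker probe sets, which include those near the array medians, was not tested. Alternatives were quantile and median normalization, pseudocounts of 1 and 64, filters at the 40th and 60th percentile, no variance trend, array weights, all 12 arrays, only the arrays of a contrast, a replicate block, each array left out, and an adjusted p under 0.01.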

Additional observations from a re-analysis of the deposited data

How the results depend on the processing

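With no variance trend the changed probe sets numbered 396 (131 higher, 265 lower), the parental differences 482, and those in both comparisons 129 (84 higher and 43 lower in both). With all 12 arrays in the fit the numbers were 391 (150 higher, 241 lower), 150 in both (99 and 45), and 161 against both parents. At an adjusted p under 0.01 they were 401 (150 higher, 251 lower), 557 between parents, 151 in both (99 and 47) and 173 against both parents. Leaving out each array gave 468 to 702 changed, 177 to 306 higher, 283 to 396 lower, 257 to 314 at least 2-fold, 641 to 874 between parents, 197 to 280 in both (117 to 178 and 59 to 96) and 194 to 245 against both parents. The cause was not tested in these cases. Filters at the 40th and 60th percentile gave 911 and 948 changed, and normalization, pseudocounts, array weights and the arrays of the contrast alone gave 594 to 764. The share of rises also higher in UAS-wge ranged over 49.7% to 67.5% and that of falls also lower over 16.2% to 28.0%. Centring array medians moved the share of higher calls to 49.6%, against 43.2% as reported. With the replicate number as a block 749 probe sets changed. After group means were removed, same-numbered arrays correlated at -0.026 to 0.043 and differently numbered ones at -0.036 to 0.036. Between UAS-wge and ey>wge the same-numbered arrays stood at 0.033 to 0.043 and the others at -0.023 to -0.012. In pairs with ey-Gal4 the 2 kinds overlapped. All these values are small, and whether the numbers mark a shared batch was not tested. Of 107 named genes 69 stayed on the same side of the threshold under the 20 alternatives that kept an adjusted p of 0.05, and of the 105 called at 0.05 89 were under 0.01. With no variance trend the Hox and JAK/STAT lists each had 1 rise (2 as reported), the glutathione S-transferase, cuticle and mitochondrial ribosomal lists 1 (3 as reported) and the respiratory list 0 (3), and the chromosome 4 list had 3 falls (6), while the wing list had 6 rises and the photoreceptor list 14 falls (12 with all 12 arrays). Pxn, at -0.03 as reported, changed sign to 0.01 with array medians centred, 0.06 without ey-Gal4 replicate 1, 0.08 without ey-Gal4 replicate 3 and 0.03 without ey>wge replicate 2; its range with 1 array left out was -0.25 to 0.08, not past the threshold in any. Pseudocounts of 1 and 64 gave Ilp8 changes of 5.21 and 3.14, Antp 4.13 and 2.86, TwdlG 5.0 and 2.13 and sev -3.64 and -1.83, so the size of a change against near-background signal depends on this choice. The planned search of promoter letters was not run. Signal over background limits genes near the arrays' 40th percentile of 24.7 to 27.7.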

Other observations

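Of 128 changed genes with several probe sets, all probe sets passed in 9 and only some in 119, and 2 genes, lola and mod(mdg4), had probe sets called in opposite directions. Those 2 genes are known for many alternatively spliced products. In 10 genes 1 parent was below its arrays' 40th percentile on all 3 arrays while the other averaged above 100. In these the ey>wge mean was 32.6% to 93.5% of the expressing parent's mean, and 2 of the 10, TwdlG and Tektin-C, changed against ey-Gal4. A set of 15 probe sets had calls of opposite direction in the ey>wge response and the parental comparison. Among them Aplip1, a kinesin adaptor gene, read 128.2, 116.0 and 57.8 in ey>wge, 528.3, 585.3 and 399.9 in UAS-wge, and 247.4, 212.9 and 287.8 in ey-Gal4. Its call in ey>wge was lost without ey-Gal4 replicate 3 (adjusted p = 0.0635). futsch, a microtubule-associated protein gene of axons, read 320.1, 364.1 and 292.3 in ey>wge, 1697.5, 1559.6 and 1437.8 in UAS-wge, and 789.5, 874.7 and 842.1 in ey-Gal4. slf went the other way, with 1165.6, 1147.0 and 1362.0 in ey>wge, 320.6, 391.1 and 417.7 in UAS-wge, and 834.8, 548.8 and 543.8 in ey-Gal4.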
